A study of Mus musculus with 2 samples.

Results

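Cluster 6 is 1 of 11 cell clusters in tumors grown from mouse dysplastic stem cells, and the genes used to mark it include products of the epithelium that lines the stomach surface. It is described here by the 6664 genes that the authors' deposited table gives for it, each with a linear fold and a p-value, of 18319 genes named anywhere in that table. The genes were taken by the cluster's number alone. All cells came from tumors that formed after injection of cells named DP-DSC into female mice of the NuJ strain, and the label of both samples calls them tumor cells. A cystic adenocarcinoma was taken 10 weeks after injection and a tubular adenocarcinoma 13 weeks after it, with 1 single-cell library each, made in droplets with barcoded beads on the inDrop platform. The columns of the table carry cluster numbers and no tumor type, so the share of cluster 6 that came from each tumor is unknown, and so are the number of its cells and their depth. With 1 tumor of each type, no value has an error across animals. Nothing in the table tells cells of the injected line from cells of the host.

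A gene is called listed where the table gives it, which needs a deposited fold above 1.5, and raised where that fold reaches 2 and the deposited p does not exceed 0.05. A listed gene that misses either threshold is given as being without a call. By this rule 3713 genes were raised in cluster 6, which is 20.3% of the genes named in the table. Clusters 3 and 9, the epithelial clusters set beside it here, had 733 raised genes (4.0%) and 4871 raised genes (26.6%). Clusters 5 and 7 also had raised epithelial genes, such as Cdh17 at 4.37 in cluster 5 and Tff2 at 2.22 in cluster 7 per the authors' deposited table. They are not part of this contrast. The listed genes were 36.4% of all named genes in cluster 6, 29.9% in cluster 3 and 38.9% in cluster 9. A deposited p of at most 0.05 was given for 74.5% of the listed genes of cluster 6, for 16% of those of cluster 3 and for 97.3% of those of cluster 9, so a fold of the same size was called raised least often in cluster 3. Just below and above the fold of 2 in cluster 6 lay Pja2 at 1.99981 and Rnpepl1 at 2.00002 per the authors' deposited table. The cells to which each cluster was compared are not written in the table. If they were all remaining cells, the comparisons of clusters 6, 3 and 9 share cells with each other. Values are therefore set side by side, without a test of the difference between clusters.

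Surface mucous cells, also called pit or foveolar cells, cover the stomach and its pits and secrete a mucin gel together with small proteins of the gastrokine and trefoil families. Mucous neck cells lie deeper in the gland, and after injury a related metaplastic lineage spreads that carries neck cell products. Both kinds of cell are bound by tight junctions and desmosomes and rest on a laminin-rich basement membrane. In dysplasia and in gastric adenocarcinoma, products of several of these lineages can be found together.

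The gastrokine genes Gkn2 and Gkn1 lie close together on chromosome 6 of the mm10 build, Gkn2 from 87373357 to 87379497 on the plus strand and Gkn1 from 87345650 to 87350942 on the minus strand. The polymeric immunoglobulin receptor gene Pigr lies on chromosome 1 from 130826684 to 130852249 and the keratin gene Krt18 on chromosome 15 from 102028180 to 102032027, both on the plus strand. The stretches before their starts are shown because Gkn2, Pigr and Krt18 span the largest and the smallest folds of the cluster's markers, and Gkn1 is the neighbour of Gkn2 with the same role. They are from RefSeq on GRCm38.p6, written 5′ to 3′ on the gene's own strand, and end where the gene begins in GENCODE M21. Their positions are chr6:87373115-87373356 for Gkn2, chr6:87350943-87351165 for Gkn1, chr1:130826434-130826683 for Pigr and chr15:102027966-102028179 for Krt18. Capitals mark matches to 5 searched motifs.
Gkn2: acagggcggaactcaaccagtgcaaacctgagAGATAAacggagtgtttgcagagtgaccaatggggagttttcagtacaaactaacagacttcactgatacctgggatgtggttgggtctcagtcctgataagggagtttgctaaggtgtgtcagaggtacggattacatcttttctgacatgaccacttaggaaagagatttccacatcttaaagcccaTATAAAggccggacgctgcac
Gkn1: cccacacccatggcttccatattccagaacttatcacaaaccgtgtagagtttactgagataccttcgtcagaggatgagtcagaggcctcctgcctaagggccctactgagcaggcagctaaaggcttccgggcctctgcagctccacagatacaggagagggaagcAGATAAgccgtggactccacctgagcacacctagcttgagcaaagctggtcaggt
Pigr: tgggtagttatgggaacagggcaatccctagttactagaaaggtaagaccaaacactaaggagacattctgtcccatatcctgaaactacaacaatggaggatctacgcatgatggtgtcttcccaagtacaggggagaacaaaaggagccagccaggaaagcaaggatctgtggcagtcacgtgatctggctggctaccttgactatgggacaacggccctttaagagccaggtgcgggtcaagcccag
Krt18: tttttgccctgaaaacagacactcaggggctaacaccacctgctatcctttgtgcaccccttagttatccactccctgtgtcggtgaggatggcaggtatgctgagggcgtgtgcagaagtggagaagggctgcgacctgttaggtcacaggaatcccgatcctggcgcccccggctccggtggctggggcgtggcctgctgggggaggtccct
The motifs were AGATAA for GATA factors, TGTTTAC for forkhead factors, GGAATG for TEAD factors, AACNGGTT for grainyhead-like factors and TATAAA for the TATA box, each searched on both strands in the 250 bases before the RefSeq start. AGATAA was found before Gkn2 and before Gkn1, and TATAAA before Gkn2. None of the 5 was found before Pigr or Krt18, which says only that these letters are not in this window. AGATAA occurred before 6.14% of the 2604 raised genes of cluster 6 with a promoter in the RefSeq table, against 6.48% of 12332 genes named anywhere in the deposited table and 10.3% of all 27025 promoters. GGAATG occurred before 12.3%, 11.1% and 12.6% of the same sets, TGTTTAC before 2.34%, 2.34% and 3.09%, AACNGGTT before 1.88%, 1.60% and 1.71%, and TATAAA before 6.61%, 7.51% and 13.0%. For the raised genes of cluster 6 these shares were close to those of all genes named in the table, a set that includes them.

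All 5 genes by which the cluster had been marked were raised in it. They were chosen with earlier results of these data known, so this is no independent support for the name. Krt18, a keratin of simple epithelia, had a fold of 2.34 in cluster 6, 2.46 in cluster 3 and 2.04 in cluster 9 per the authors' deposited table, and 2.81 in cluster 7. Gkn2, a secreted gastrokine of surface mucous cells, had a fold of 10.8 in cluster 6, 1.62 in cluster 3 without a call, and 5.60 in cluster 9 per the authors' deposited table. Pigr, the receptor that carries IgA and IgM across the epithelium, had a fold of 9.29 in cluster 6 and 4.74 in cluster 9 per the authors' deposited table and was not listed in cluster 3. Gkn2 and Pigr thus had their largest fold in cluster 6, while Krt18 was at about the same level of fold in all 3. Tff2, the trefoil peptide of neck cells, had a fold of 3.66 in cluster 6 per the authors' deposited table, against 2.36 in cluster 3, 2.18 in cluster 9 and 2.22 in cluster 7. Lamb3, the beta chain of the epithelial laminin-332, had a fold of 4.97 in cluster 6, 3.98 in cluster 3 without a call, and 2.64 in cluster 9 per the authors' deposited table. None of the 5 was listed in clusters 1, 2, 4, 5, 8, 10 or 11. In the order of cluster 6 by deposited p, Krt18 stood at position 1, Tff2 at 88 and Lamb3 at 173, but Gkn2 at 3447 and Pigr at 4089 of 6664, so the mucous genes with the largest folds were far down that order.

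**Figure D1:**
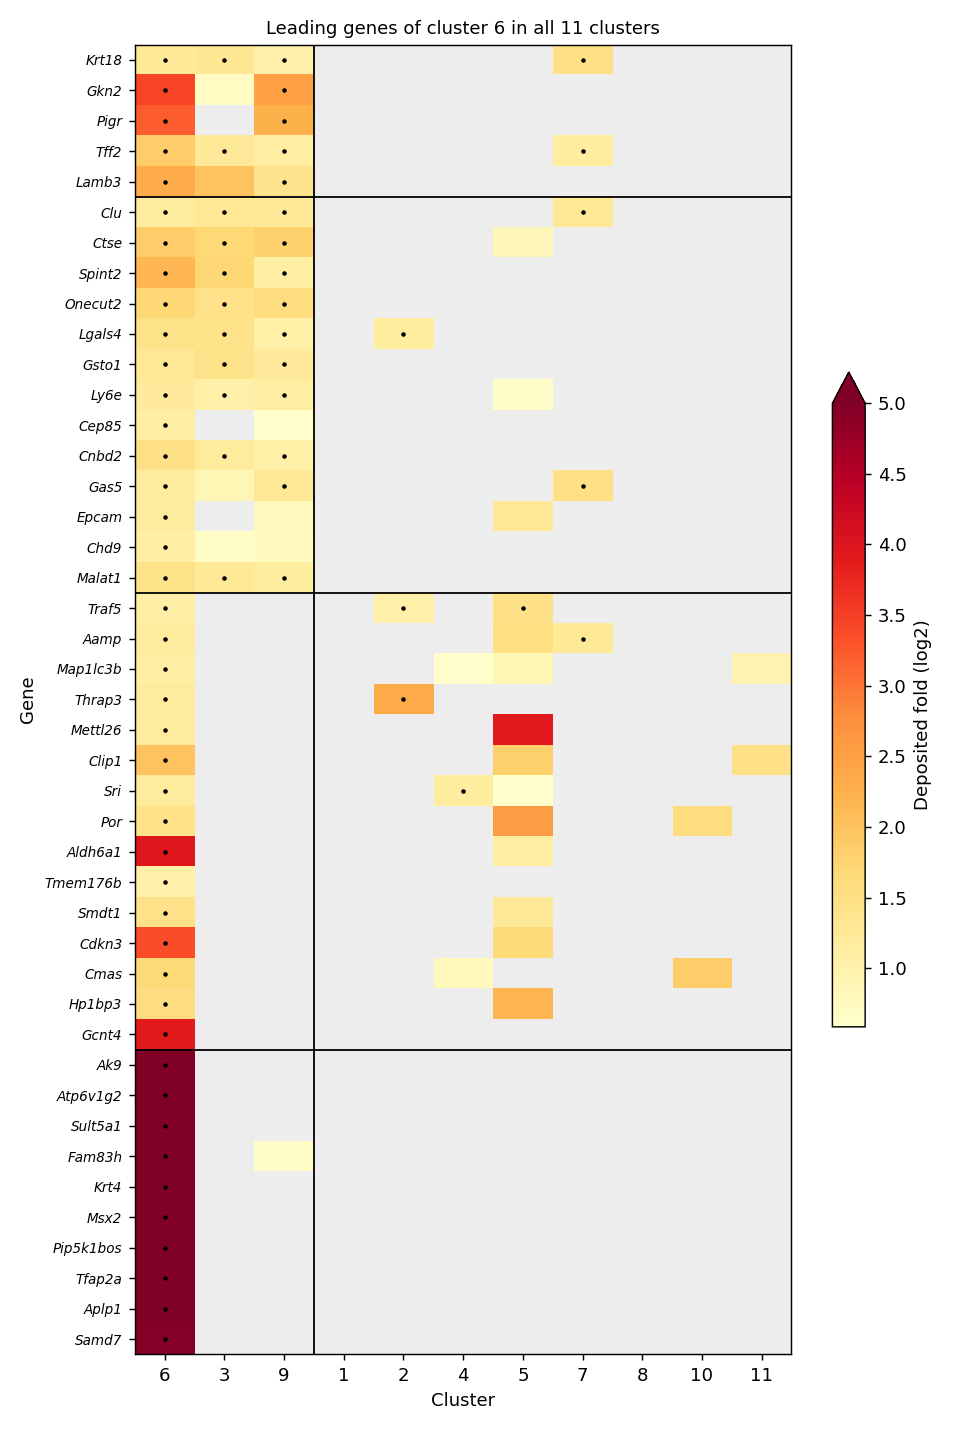
Deposited fold (colour on a log2 scale, saturated above a log2 fold of 5) of leading genes of cluster 6 in each of the 11 clusters, with clusters 6, 3 and 9 on the left. Rows run from the 5 markers, through genes that come first by p and the genes listed in neither cluster 3 nor 9, to the genes of largest fold, ribosomal and predicted genes left aside; grey means not listed and a dot means raised. The first 2 blocks are coloured in clusters 6 and 9 throughout and mostly in cluster 3, and the last block is coloured almost only in cluster 6, with Fam83h at 1.61 in cluster 9 as the exception.

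Of 15 surface mucous genes, 9 were raised in cluster 6 (60%, against 20.3% of all named genes), 6 in cluster 3 (40.0%, against 4.0%) and 10 in cluster 9 (66.7%, against 26.6%). The 3 largest folds of the list in cluster 6 after Gkn2 were those of Mucl3, Gkn1 and Tff1. Mucl3, a mucin-like membrane protein, was at 5.46 in cluster 6, 2.15 in cluster 3 and 7.34 in cluster 9 per the authors' deposited table. Gkn1, the other main gastrokine of surface cells, was at 4.82 in cluster 6, 4.01 in cluster 3 without a call, and 5.94 in cluster 9 per the authors' deposited table. Tff1, the trefoil peptide secreted with surface mucus, was at 3.85 in cluster 6, 2.16 in cluster 3 and 2.87 in cluster 9 per the authors' deposited table. Of these secreted products, the gastrokine Gkn2 and the trefoil gene Tff1 had larger folds in cluster 6 than in cluster 9, and Mucl3 and Gkn1 had smaller ones. The aspartic protease gene Ctse was nearly level, at 3.60 in cluster 6, 3.20 in cluster 3 and 3.48 in cluster 9 per the authors' deposited table. Foxq1, a forkhead factor needed for mucin expression in mouse surface cells, was at 3.44 in cluster 6, 2.12 in cluster 3 and 2.36 in cluster 9 per the authors' deposited table. The core 2 and core 4 glycosyltransferase gene Gcnt3 was at 3.14 in cluster 6, 3.47 in cluster 3, and 1.61 in cluster 9 without a call per the authors' deposited table.

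The remaining surface mucous genes included the membrane mucin Muc1 and the junction protein gene Vsig1, raised at 2.45 and 2.20 in cluster 6 per the authors' deposited table. Psca, at 1.85, and Anxa10, at 1.67 per the authors' deposited table, were listed in cluster 6 and not raised. Sult1c2 was not listed in cluster 6, against a fold of 10.6 without a call in cluster 3 and of 4.05 in cluster 9 per the authors' deposited table. Muc5ac, the defining secreted mucin of surface mucous cells, and the calpains Capn8 and Capn9 were named for none of the 11 clusters. The main mucin thus has no value behind the name surface mucous, and more genes of the list were raised in cluster 9 than in cluster 6.

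Of 15 genes of mucous neck cells and of metaplastic glands, 7 were raised in cluster 6 (46.7%, against 20.3%). Raised in cluster 3 were 6 (40.0%, against 4.0%) and in cluster 9 were 7 (46.7%, against 26.6%). Beside Pigr and Tff2, Agr2, a disulfide isomerase needed for mucin folding, was at 3.75 in cluster 6 and 2.58 in cluster 9 per the authors' deposited table. It was not listed in cluster 3 and stood at 6.59 without a call in cluster 7. Gkn3, the gastrokine of neck cells, was at 2.96 in cluster 6, 3.22 in cluster 3 without a call, and 3.85 in cluster 9 per the authors' deposited table. The chloride channel gene Cftr was at 2.93 in cluster 6, 7.54 in cluster 3 and 5.90 in cluster 9 per the authors' deposited table. Of clusters 6, 3 and 9, cluster 6 thus had the smallest folds of Cftr and Gkn3. The secreted chaperone Clu was at 2.25 in cluster 6, 2.40 in cluster 3 and 2.35 in cluster 9 per the authors' deposited table, and the sorting protein gene Mal2 at 2.13, 3.33 and, without a call, 1.92 in the same order. Aqp5, at 1.96, Wfdc2, at 1.72, and Dmbt1, at 1.57 per the authors' deposited table, were listed in cluster 6 and not raised. The neck mucin Muc6, the stem cell marker Olfm4, Cd44 and Sox9 were not listed in cluster 6. Cluster 6 therefore carried surface and neck products together and lacked calls for the 2 gel-forming mucins that set these lineages apart.

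**Figure D2:**
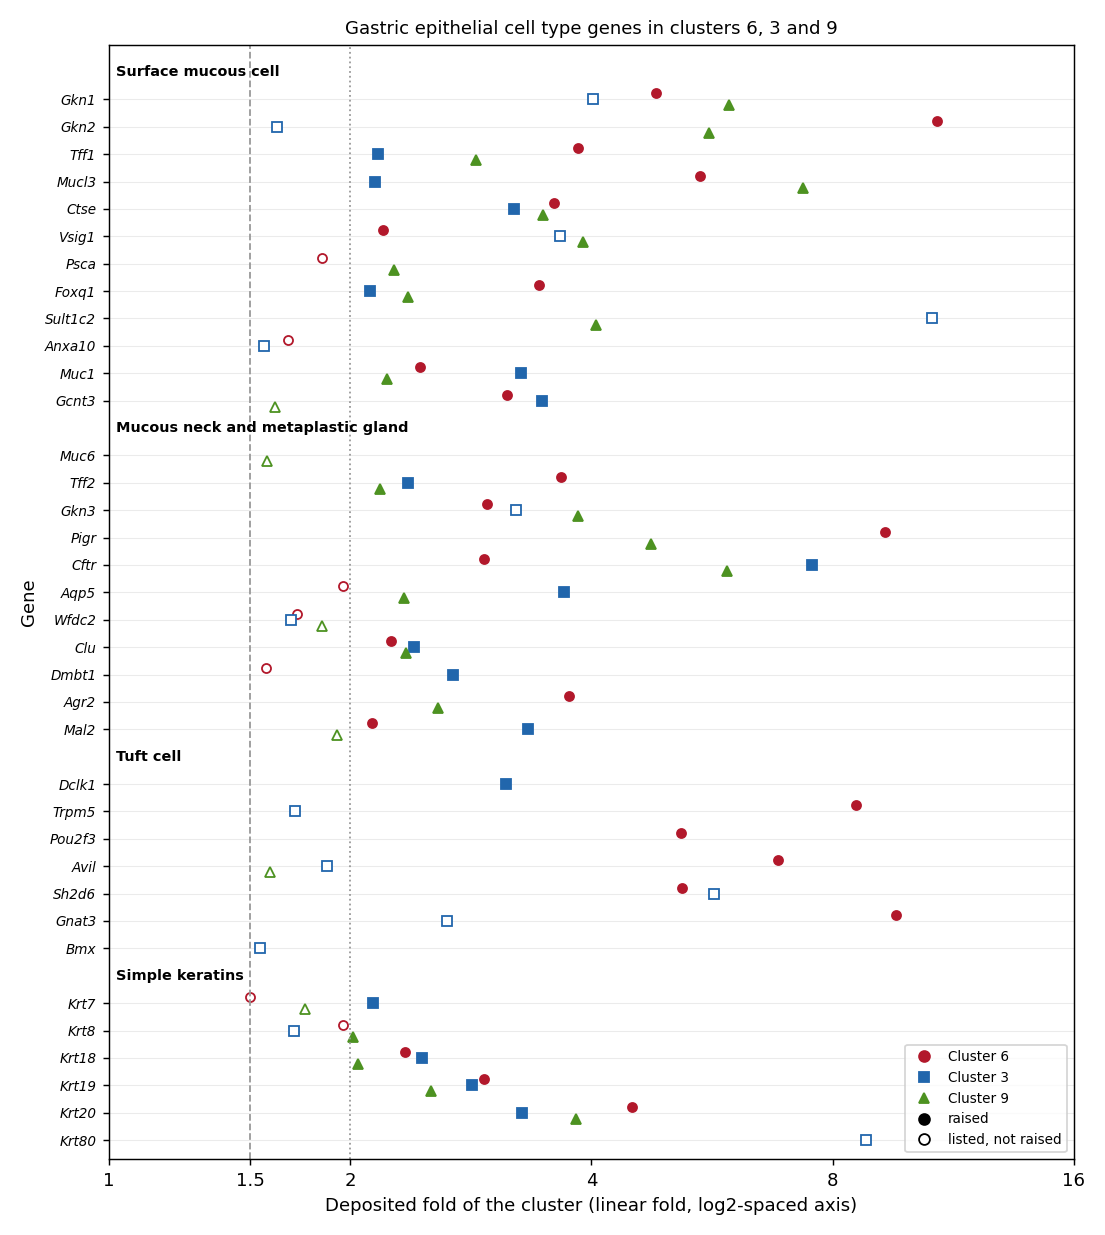
Deposited fold (log2-spaced axis) of genes of gastric epithelial cell types and simple keratins listed in at least 1 of clusters 6 (circles), 3 (squares) and 9 (triangles). Filled symbols are raised, open ones are listed and not raised, a missing symbol means not listed, and the lines mark folds of 1.5 and 2. Cluster 6 stands furthest right for Gkn2, at 10.8, and for Pigr, at 9.29, and 5 tuft cell genes have filled circles.

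Tuft cells are rare chemosensory epithelial cells that use parts of the taste signalling cascade. Of 12 tuft cell genes, 5 were raised in cluster 6 (41.7%, against 20.3% of all named genes), 1 in cluster 3 (8.33%, against 4.0%) and 0 in cluster 9 (against 26.6%). Gnat3, the taste G protein alpha-gustducin, was at 9.58 in cluster 6 and, without a call, at 2.64 in cluster 3 per the authors' deposited table. Trpm5, the cation channel of taste and tuft cells, was at 8.54 in cluster 6 and, without a call, at 1.71 in cluster 3 per the authors' deposited table. Pou2f3, the factor that tuft cells need to form, was at 5.17 in cluster 6 per the authors' deposited table. None of these 3 genes was listed in cluster 9, and Pou2f3 was not listed in cluster 3 either. The actin-binding protein gene Avil was at 6.83 in cluster 6, and without a call at 1.87 in cluster 3 and 1.59 in cluster 9 per the authors' deposited table. The adaptor gene Sh2d6 was at 5.19 in cluster 6 and, without a call, at 5.69 in cluster 3 per the authors' deposited table. Dclk1, the kinase most used to mark tuft cells, was not listed in cluster 6 and was raised at 3.13 in cluster 3 per the authors' deposited table. In the order by deposited p, Avil stood at position 1097, Gnat3 at 2667 and Trpm5 at 3193. The table does not say whether the same cells carried them and the mucous genes.

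Of 13 genes of chief, parietal and endocrine cells, 0 were raised in cluster 6, and 11 of them were named for none of the 11 clusters. Bhlha15, a factor of secretory cells, was listed without a call at 4.40 in cluster 6 and was raised at 2.57 in cluster 9 per the authors' deposited table. Of 15 intestinal genes, 5 were named for any cluster, and 3 were raised in each of clusters 6, 3 and 9 (20% of the list). The backgrounds of 20.3%, 4.0% and 26.6% count named genes only, and 3 of 5 named genes is a larger share than each. The count of cluster 6 fell to 1 at a fold threshold of 3 and at a p of at most 0.01. Clca1, a secreted protein of goblet cells, was at 6.14 in cluster 6, 4.24 in cluster 3 and, without a call, 2.696 in cluster 9 per the authors' deposited table. The lectin gene Lgals4 was at 2.68 in cluster 6, 2.68 in cluster 3 and 2.05 in cluster 9, and the cadherin gene Cdh17 at 2.67, 2.68 without a call, and 2.30 in the same order per the authors' deposited table. Vil1, also of this list, had its smallest fold in cluster 6. It was at 1.54 without a call in cluster 6, 8.40 in cluster 3 and 5.97 in cluster 9 per the authors' deposited table. The intestinal factors Cdx1 and Cdx2 and the goblet mucin Muc2 were named for no cluster.

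Of 7 keratins of simple epithelia, 3 were raised in cluster 6 (42.9%, against 20.3%). Clusters 3 and 9 each had 4 (57.1%, against 4.0% and 26.6%). Krt20, a keratin of differentiated gastric and intestinal surface cells, was at 4.50 in cluster 6, 3.28 in cluster 3 and 3.83 in cluster 9 per the authors' deposited table. Krt19 was at 2.94 in cluster 6, 2.83 in cluster 3 and 2.53 in cluster 9 per the authors' deposited table. Krt8, the partner of Krt18, was at 1.96 in cluster 6 and missed the call, against 1.70 without a call in cluster 3 and 2.01 in cluster 9 per the authors' deposited table. Of these clusters, Krt20 and Krt19 had their largest fold in cluster 6. Of 17 squamous genes, 3 were raised in cluster 6 (17.6%), 3 in cluster 3 (17.6%) and 1 in cluster 9 (5.88%). Only 9 of the 17 were named for any cluster, and the backgrounds of 20.3%, 4.0% and 26.6% count named genes only. Over those 9 genes, the shares of clusters 6 and 3 lay above their backgrounds and that of cluster 9 below. Krt4, a keratin of squamous epithelium of the esophagus and forestomach, was at 37.9 in cluster 6 per the authors' deposited table, and Sprr3, a cornified envelope precursor, at 17.2, and neither was listed in any other cluster. The basal keratin gene Krt14 was at 4.02 in cluster 6, 4.77 without a call in cluster 3, and 4.15 in cluster 9 per the authors' deposited table. The squamous master factor Trp63 was not listed in cluster 6 and was raised in cluster 3 at 26.5 per the authors' deposited table, and Krt5 was named for no cluster.

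Junction lists stood above the background of raised genes in cluster 6. Of 21 tight junction and adhesion genes, 9 were raised in cluster 6 (42.9%, against 20.3%). There were 6 in cluster 3 (28.6%, against 4.0%) and 14 in cluster 9 (66.7%, against 26.6%). Cgn, a scaffold of tight junctions, was at 8.74 in cluster 6 and 9.83 in cluster 9 per the authors' deposited table. The tight junction MARVEL protein gene Marveld3 was at 7.25 in cluster 6, 2.11 without a call in cluster 3, and 5.29 in cluster 9 per the authors' deposited table. The polarity scaffold Patj was at 6.41 in cluster 6, 2.10 without a call in cluster 3, and 5.99 in cluster 9 per the authors' deposited table. The largest of these folds, that of Cgn, had no counterpart in cluster 3, where the gene was not listed. Among claudins, Cldn7, Cldn3 and the stomach claudin Cldn18 were raised in cluster 6 at 3.41, 2.92 and 2.38 per the authors' deposited table. Calls aside, they had larger folds in cluster 3, at 4.37, 4.80 and 2.91 in the same order per the authors' deposited table. Cldn7 and Cldn18 also had larger folds in cluster 9, at 4.06 and 2.83 per the authors' deposited table. Cldn4 was not listed in cluster 6. Cldn4 was raised at 2.76 in cluster 9 and stood at 16.3 without a call in cluster 3 per the authors' deposited table. Epcam, a pan-epithelial adhesion molecule, was raised at 2.25 in cluster 6, while E-cadherin, Cdh1, stood at 1.79 in cluster 6 and at 1.79 in cluster 9 per the authors' deposited table, below the threshold in both. Cdh1 was raised in clusters 5 and 7.

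Desmosome genes, which anchor keratins at the cell border, had 6 of 10 members raised in cluster 6 (60%, against 20.3%). Raised in cluster 3 were 2 (20%, against 4.0%) and in cluster 9 were 6 (60%, against 26.6%). Pkp2, a plakophilin, was at 5.83 in cluster 6, 1.69 without a call in cluster 3, and 3.17 in cluster 9 per the authors' deposited table. Plakoglobin, Jup, was at 4.51 in cluster 6, 1.53 without a call in cluster 3, and 3.68 in cluster 9 per the authors' deposited table. Desmoplakin, Dsp, was at 4.23 in cluster 6, 6.42 without a call in cluster 3, and 3.68 in cluster 9 per the authors' deposited table. Among the values with a call, these 3 were largest in cluster 6. The envelope-linked plakins Ppl and Evpl were raised in cluster 6 at 3.56 and 3.38 per the authors' deposited table, and Pkp3 was raised there at 2.56. The desmosomal cadherins Dsg2 and Dsc2 were not listed in cluster 6.

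Of 11 laminin chains, 6 were raised in cluster 6 (54.5%, against 20.3%). There was 1 in cluster 3 (9.09%, against 4.0%) and 4 in cluster 9 (36.4%, against 26.6%). Laminins tie epithelial cells to the basement membrane. Beside Lamb3, the alpha chain Lama3 was at 3.59 in cluster 6, and without a call at 2.24 in cluster 3 and 1.96 in cluster 9 per the authors' deposited table. Lamb2 was at 8.33 in cluster 6, and without a call at 2.56 in cluster 3 and 1.93 in cluster 9 per the authors' deposited table. Lama3 and Lamb2 were thus raised in cluster 6 and missed the call in clusters 3 and 9. Lamb1 and Lama5 were raised in cluster 6 at 2.68 and 2.33 per the authors' deposited table, and Lamc1 was listed at 1.86. Lama5 had larger folds in clusters 3 and 9, where it was raised at 3.47 and 2.89 per the authors' deposited table. Lamb1 was about level in cluster 9, at 2.72 per the authors' deposited table.

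Integrins and hemidesmosome parts had 5 of 16 members raised in each of clusters 6 and 9 (31.2%, against 20.3% and 26.6%). Cluster 3 had 2 (12.5%, against 4.0%). Itgb5, a beta chain that pairs with the alpha-v chain, was raised in cluster 6 at 3.74 and was not listed in clusters 3 and 9 per the authors' deposited table. Itgb5 was also listed without a call in clusters 4, 8, 10 and 11. Its fold in cluster 10, at 4.02 per the authors' deposited table, was larger than that in cluster 6. The laminin receptor chain Itga3 was at 3.54 in cluster 6, 2.22 in cluster 3 and 3.15 in cluster 9 per the authors' deposited table. Itgb4, the hemidesmosome integrin, was at 2.80 in cluster 6, 1.67 without a call in cluster 3, and 2.81 in cluster 9 per the authors' deposited table. Of 12 basement membrane collagens and related proteoglycans, 2 were raised in cluster 6 (16.7%), near the background, 0 in cluster 3 and 5 in cluster 9 (41.7%). They were Col18a1 at 5.65 and Agrn at 3.43 in cluster 6 per the authors' deposited table, while the collagen IV chain Col4a1 was at 2.51 there without a call.

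**Figure D3:**
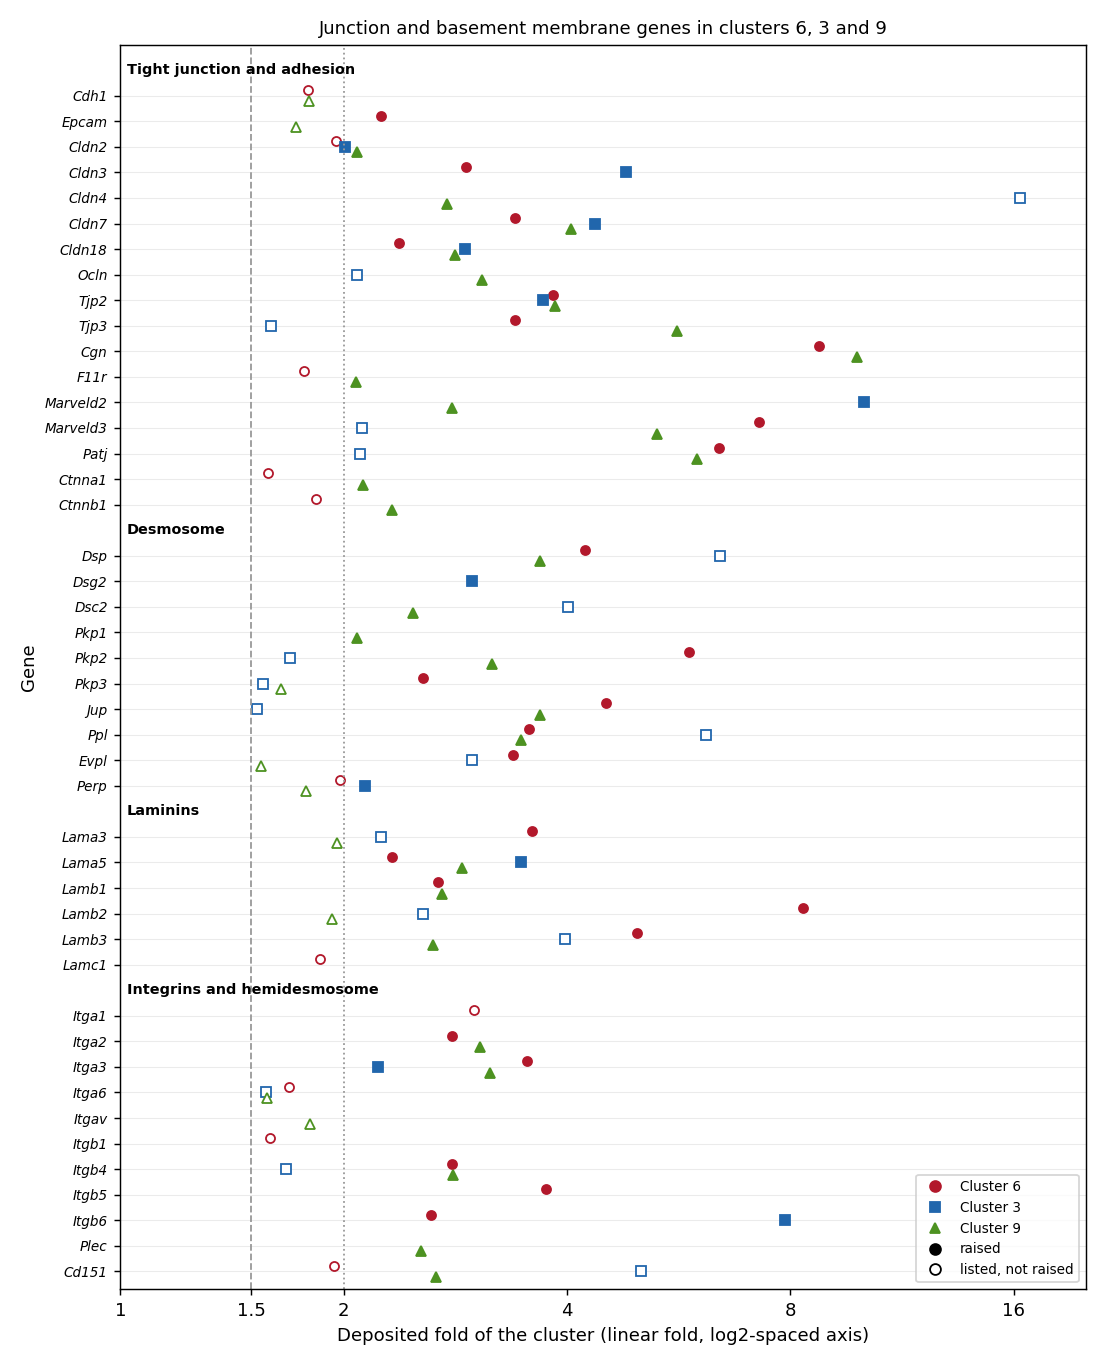
Deposited fold (log2-spaced axis) of most junction, desmosome, laminin and integrin genes listed in at least 1 of clusters 6 (circles), 3 (squares) and 9 (triangles). Filled symbols are raised and open ones are listed and not raised, with lines at folds of 1.5 and 2. Among laminins Lamb2 stands at 8.33 in cluster 6, and most squares of the desmosome and laminin genes are open.

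Of 33 mucin-type glycosyltransferases, 13 were raised in cluster 6 (39.4%, against 20.3% of all named genes). The 1 raised in cluster 3 (3.03%) was near its background of 4.0%, and 13 were raised in cluster 9 (39.4%, against 26.6%). Gcnt4, which makes core 2 branches, was at 14.8 in cluster 6 per the authors' deposited table and was listed in no other cluster. Fut9, a fucosyltransferase of Lewis antigens, was at 8.06 in cluster 6, 1.51 without a call in cluster 3, and 2.10 in cluster 9 per the authors' deposited table. The sialyltransferase gene St3gal4 was at 6.78 in cluster 6, 1.88 without a call in cluster 3, and 5.20 in cluster 9 per the authors' deposited table. The values of St3gal4 in clusters 6 and 9 lay closer together than those of Fut9. Several enzymes that start O-glycans followed. Galnt12 was at 5.71 in cluster 6 and 6.70 in cluster 9, and Galnt10 at 4.87 and 2.93 per the authors' deposited table. Galnt11 was at 1.90 in cluster 6, without a call, against 7.55 in cluster 9 per the authors' deposited table. The core 1 synthase C1galt1 and its chaperone C1galt1c1 were raised in cluster 6 at 2.40 and 2.27 per the authors' deposited table.

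Of 14 mucins, 2 were raised in cluster 6 (14.3%), 2 in cluster 3 (14.3%) and 4 in cluster 9 (28.6%). Only 7 of the 14 were named for any cluster, and the backgrounds of 20.3%, 4.0% and 26.6% count named genes only. Over those 7 genes, the share lay above the background in each of the 3 clusters, on small counts. Muc4 was at 2.54 in cluster 6 without a call, against 4.45 in cluster 9, where it was raised per the authors' deposited table. Genes of secretory cell folding and maturation had 5 of 18 members raised in cluster 6 (27.8%), 0 in cluster 3 and 8 in cluster 9 (44.4%). Foxa3, a forkhead factor of secretory lineages, was at 6.51 in cluster 6, 2.42 without a call in cluster 3, and 2.14 in cluster 9 per the authors' deposited table. Spdef, an ETS factor of mucous cell maturation, was at 5.44 in cluster 6, and without a call at 3.97 in cluster 3 and 1.70 in cluster 9 per the authors' deposited table. The vesicle GTPase gene Rab27b was at 4.10 in cluster 6 and 5.93 in cluster 9, and Ern2, a stress sensor of mucous cells, at 3.95 and 5.13 per the authors' deposited table. Foxa3 and Spdef thus had larger folds in cluster 6 than in cluster 9, and Rab27b and Ern2 had smaller ones. Agr2, also of this list, had the larger fold in cluster 6, at 3.75 against 2.58 in cluster 9 per the authors' deposited table. The list was therefore not split between factors and effectors.

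Of 28 genes of fluid and ion transport, 15 were raised in cluster 6 (53.6%, against 20.3%). There were 6 in cluster 3 (21.4%, against 4.0%) and 14 in cluster 9 (50%, against 26.6%). Scnn1a, the alpha subunit of the epithelial sodium channel, was at 16.8 in cluster 6 per the authors' deposited table and was listed in neither cluster 3 nor cluster 9. The sodium-proton exchanger gene Slc9a4 was at 12.04 in cluster 6 and 3.49 in cluster 9 per the authors' deposited table. The chloride channel gene Clcn2 was at 6.69 in cluster 6, and without a call at 1.70 in cluster 3 and 1.98 in cluster 9 per the authors' deposited table. Where listed, these 3 had smaller folds in clusters 3 and 9 than in cluster 6. Kcne3, a subunit of potassium channels, was at 6.57 in cluster 6, 4.40 without a call in cluster 3, and 2.54 in cluster 9 per the authors' deposited table. Bicarbonate transporters had calls in clusters 6 and 9. The anion exchanger gene Slc4a2 was at 4.78 in cluster 6 and 5.31 in cluster 9, and the cotransporter gene Slc4a4 at 3.494 and 3.504 per the authors' deposited table. Slc26a9, a chloride transporter of gastric surface cells, was not listed in cluster 6 and was raised at 8.66 in cluster 3 per the authors' deposited table.

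Of 30 gastric and epithelial transcription factors, 9 were raised in cluster 6 (30%, against 20.3%). Raised in cluster 3 were 5 (16.7%, against 4.0%) and in cluster 9 were 10 (33.3%, against 26.6%). Grhl3, a grainyhead-like factor of epithelial barriers, was at 10.4 in cluster 6 and, without a call, at 2.05 in cluster 9 per the authors' deposited table. The GATA factor Gata5 was at 8.27 in cluster 6, 1.71 without a call in cluster 3, and 2.52 in cluster 9 per the authors' deposited table. Gata4 was at 3.02 in cluster 6, 7.41 in cluster 3 and 3.08 in cluster 9, and Gata6 was at 2.15 in cluster 6 and 1.72 without a call in cluster 3 per the authors' deposited table. All 3 GATA factors of the list were raised in cluster 6. The ETS factor Ehf was at 3.35 in cluster 6, 2.10 without a call in cluster 3, and 4.64 in cluster 9 per the authors' deposited table. Pdx1, a factor of the antrum and pancreas, was at 1.82 in cluster 6 without a call, against 5.70 in cluster 9 per the authors' deposited table, and Grhl2 was at 1.90 without a call, against 7.76. Sox2, Klf4, Foxa1 and Foxa2 were not listed in cluster 6.

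Of 12 EGFR ligands and receptors, 4 were raised in cluster 6 (33.3%, against 20.3%). There were 0 in cluster 3 (against 4.0%) and 5 in cluster 9 (41.7%, against 26.6%). Tgfa, an EGFR ligand that drives foveolar growth in mice, was at 14.1 in cluster 6, and without a call at 2.06 in cluster 3 and 1.68 in cluster 9 per the authors' deposited table. The receptor Erbb2 was at 5.74 in cluster 6, 2.48 without a call in cluster 3, and 3.82 in cluster 9 per the authors' deposited table. The ligand Tgfa and the receptor Erbb2 thus had their largest fold in cluster 6. Erbb3 was at 2.42 in cluster 6 and 3.90 in cluster 9 per the authors' deposited table. Errfi1, a feedback inhibitor of EGFR, was raised in cluster 6 at 2.22 per the authors' deposited table. Egfr itself was not listed in cluster 6, against 2.65 with a call in cluster 9 per the authors' deposited table. Egf, another ligand, was not listed in cluster 6, against 5.12 in cluster 9 per the authors' deposited table. Of 18 MAPK feedback genes and targets, 4 were raised in cluster 6 (22.2%, near the background), 2 in cluster 3 (11.1%) and 8 in cluster 9 (44.4%), with Fosl1 at 4.07 in cluster 6 per the authors' deposited table, and Etv4 and Etv5 not listed there.

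Of 18 YAP targets and fetal-like genes, 8 were raised in cluster 6 (44.4%, against 20.3%). Raised in cluster 3 were 4 (22.2%, against 4.0%) and in cluster 9 were 9 (50%, against 26.6%). Tead4, a DNA-binding partner of YAP, was at 12.6 in cluster 6, 2.43 without a call in cluster 3, and 2.46 in cluster 9 per the authors' deposited table. The alarmin Il33 was at 5.84 in cluster 6 and 7.37 in cluster 9 per the authors' deposited table. The matricellular genes Ccn1 and Ccn2 were at 3.82 and 3.58 in cluster 6, against 3.39 and 2.58 in cluster 9 per the authors' deposited table. The dysplastic and gastric stem cell list had 4 of 20 members raised in cluster 6 (20%, at the background), 4 in cluster 3 (20%) and 5 in cluster 9 (25%). Prom1, which encodes CD133, was at 2.97 in cluster 6, 2.15 in cluster 3 and 2.09 in cluster 9 per the authors' deposited table. Axin2, a Wnt target, was at 3.39 in cluster 6 and was also raised in cluster 5, at 10.8 per the authors' deposited table. It stood at position 4781 of cluster 6 by deposited p. Lgr5 was listed in cluster 6 without a call at 1.89.

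Wnt genes had 7 of 19 members raised in cluster 6 (36.8%, against 20.3%). The 1 in cluster 3 (5.26%) was near the background of 4.0%, and 13 were raised in cluster 9 (68.4%, against 26.6%). Fzd6, a Wnt receptor, was at 5.31 in cluster 6 and 7.10 in cluster 9, the ligand Wnt4 at 4.56 and 4.80, and the ubiquitin ligase Znrf3, which removes Wnt receptors, at 4.42 and 3.86 per the authors' deposited table. The ligand Wnt10a was not listed in cluster 6, against 14.9 in cluster 9 per the authors' deposited table. Notch genes had 3 of 13 members raised in cluster 6 (23.1%, near the background), 1 in cluster 3 (7.69%) and 6 in cluster 9 (46.2%). They were the ligand Jag2 at 4.68, the feedback gene Nrarp at 3.01 and the target Hes1 at 2.22 in cluster 6 per the authors' deposited table, and Notch1 was not listed there.

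Genes of DNA replication had 7 of 18 members raised in cluster 6 (38.9%), 0 in cluster 3 and 12 in cluster 9 (66.7%). Rrm2, a subunit of ribonucleotide reductase, was at 6.04 in cluster 6, 2.74 without a call in cluster 3, and 1.81 without a call in cluster 9 per the authors' deposited table. Thymidylate synthase, Tyms, was at 5.92 in cluster 6 and 1.54 without a call in cluster 3 per the authors' deposited table and was not listed in cluster 9. Both genes serve the supply of nucleotides, and neither had a call in cluster 3 or 9. The helicase genes Mcm2 and Mcm5 were at 4.47 and 3.22 in cluster 6, against 2.58 and 4.94 in cluster 9 per the authors' deposited table. Of 20 G2/M genes, 6 were raised in cluster 6 (30%), 0 in cluster 3 and 6 in cluster 9 (30%), against backgrounds of 20.3%, 4.0% and 26.6%. The count of cluster 6 fell to 3 at a fold threshold of 3 and at a p of at most 0.01. Tpx2, a spindle factor, was at 9.91, cyclin B1, Ccnb1, at 5.16 and Mki67 at 4.70 in cluster 6 per the authors' deposited table. Top2a was at 1.51 in cluster 6 without a call per the authors' deposited table, and Birc5, Plk1 and Aurka were not listed.

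Of 22 cholesterol synthesis genes, 11 were raised in each of clusters 6 and 9 (50%, against 20.3% and 26.6%) and 0 in cluster 3 (against 4.0%). The count of cluster 6 fell to 5 at a fold threshold of 3. Sc5d, a sterol desaturase, was at 4.57 in cluster 6 and 6.71 in cluster 9, and the demethylase gene Cyp51 at 4.50 and 3.90 per the authors' deposited table. Of 26 glutathione, retinoid and detoxification enzymes, 11 were raised in cluster 6 (42.3%), 4 in cluster 3 (15.4%) and 9 in cluster 9 (34.6%). At a fold threshold of 3 only 3 of these enzymes were raised in cluster 6, a share near the background at that threshold, where 2194 of 18319 genes were raised. Gpx2, the gastrointestinal glutathione peroxidase, was at 11.6 in cluster 6, 1.86 without a call in cluster 3, and 4.53 in cluster 9 per the authors' deposited table. Adh7, the alcohol and retinol dehydrogenase of the stomach, was at 9.29 in cluster 6 and 6.50 in cluster 9, and the aldo-keto reductase gene Akr1b8 at 3.47 and 5.42 per the authors' deposited table. Of 23 hypoxia and glycolysis genes, 2 were raised in each of clusters 6, 3 and 9 (8.70%), below the background in clusters 6 and 9. In cluster 6 these were Car9 at 3.74 and Vegfa at 2.36 per the authors' deposited table.

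**Figure D4:**
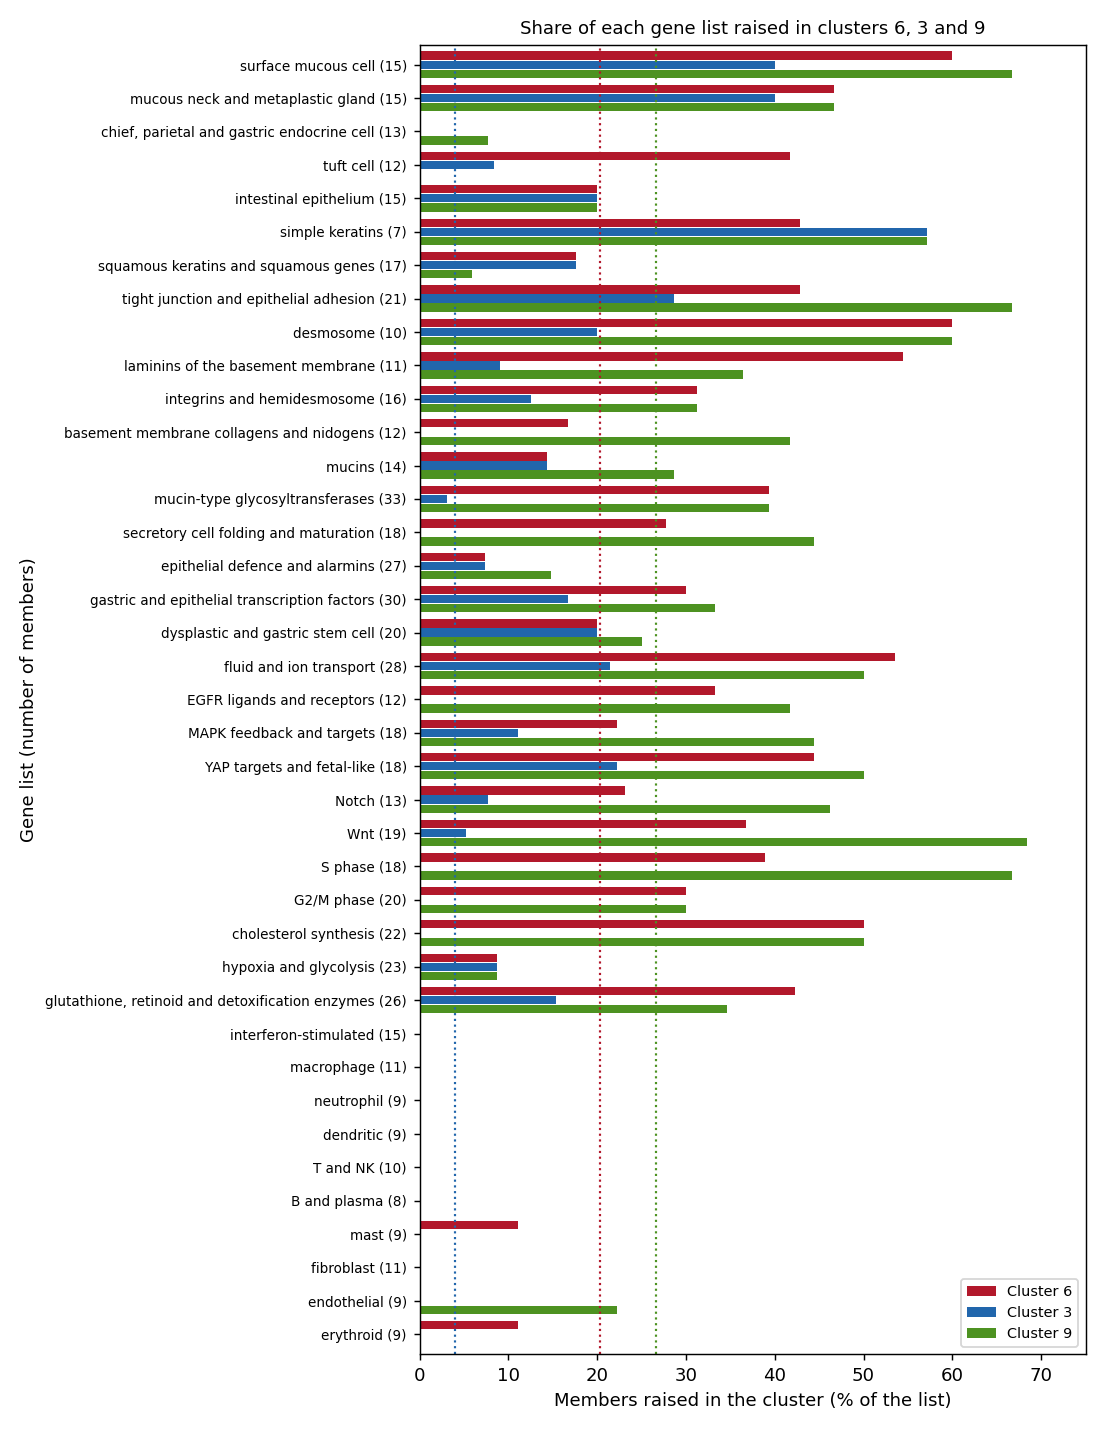
Share of each gene list raised in clusters 6, 3 and 9 (percent of the members, whose number is in brackets). Members named for no cluster are counted in that number. Dotted lines in the colours of the clusters mark the share of all 18319 named genes that was raised, 20.3% in cluster 6, 4.0% in cluster 3 and 26.6% in cluster 9. Surface mucous, desmosome, laminin, ion transport and cholesterol synthesis lists reach 50% or more in cluster 6, and the macrophage, neutrophil, dendritic, lymphocyte and fibroblast lists lie at 0 in all 3 clusters.

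Markers of cells other than epithelium were almost absent from cluster 6. The 9 lists for macrophages, neutrophils, dendritic cells, T and NK cells, B and plasma cells, mast cells, fibroblasts, endothelium and red cells hold 85 genes. Of these, 68 were named for any cluster. In cluster 6, 5 were listed and 2 raised, against 1 and 0 in cluster 3 and 3 and 2 in cluster 9. Over all named genes the listed shares were 36.4%, 29.9% and 38.9% in clusters 6, 3 and 9, and the raised shares 20.3%, 4.0% and 26.6%. No macrophage, neutrophil, dendritic, T and NK, B and plasma or fibroblast gene was listed in cluster 6. For B and plasma cells this says little, because only 1 of 8 genes was named for any cluster. Of the T and NK genes, 7 of 10 were named. The 2 raised genes were the receptor Kit at 4.26 and the erythropoietin receptor Epor at 7.65 per the authors' deposited table. Kdr, Car1 and Mcpt1 were listed without a call at 7.92, 2.20 and 1.71 per the authors' deposited table. Interferon-stimulated genes had 0 of 15 members listed in clusters 6, 3 and 9. Of 27 epithelial defence genes, 2 were raised in cluster 6 (7.41%, against 20.3%), 2 in cluster 3 (7.41%, against 4.0%) and 4 in cluster 9 (14.8%, against 26.6%). Those of cluster 6 were Pigr and Il33, with 1 left at a p of at most 0.01, and lipocalin-2 (Lcn2), the oxidase Duox2 and the neutrophil chemokines Cxcl1 and Cxcl5 were not listed.

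The genes that come first in cluster 6 by deposited p had modest folds. Among the first 100 positions the median fold was 1.96 and the largest 5.16, and 0 genes reached 10, while 257 raised genes of the cluster did. Of these 100 positions, 37 were held by ribosomal or predicted genes. After Krt18, Clu and Ctse, the genes that come next in that order included Spint2, Onecut2, Lgals4, Gsto1 and Ly6e. Spint2, an inhibitor of membrane serine proteases, was at 4.50 in cluster 6, 3.24 in cluster 3 and 2.11 in cluster 9 per the authors' deposited table. The homeobox factor Onecut2 was at 3.25 in cluster 6, 2.75 in cluster 3 and 2.95 in cluster 9 per the authors' deposited table. The glutathione transferase gene Gsto1 was at 2.39 in cluster 6, 2.699 in cluster 3 and 2.33 in cluster 9, and Ly6e at 2.33, 2.03 and 2.15 per the authors' deposited table. All of these were raised in all 3 clusters. Cep85, a centrosome protein gene at 2.14, Epcam at 2.25 and the chromatin remodeller Chd9 at 2.13 in cluster 6 per the authors' deposited table were raised there and had no call in cluster 3 or 9. Cnbd2 at 2.77, the nuclear RNA Malat1 at 2.699 and the snoRNA host gene Gas5 at 2.28 in cluster 6 per the authors' deposited table were also among the first.

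Of the raised genes of cluster 6, 929 were listed in neither cluster 3 nor cluster 9, which is 5.07% of all named genes. A gene absent from a list may have had any fold up to 1.5 there. By deposited p these genes began with Traf5, an adaptor of TNF receptors, at 2.08, the cell migration protein gene Aamp at 2.30, the autophagy gene Map1lc3b at 2.16 and Thrap3, a splicing and transcription cofactor, at 2.31 in cluster 6 per the authors' deposited table. Among the first 15, folds over 10 were those of the mitochondrial dehydrogenase gene Aldh6a1 at 15.3, of Gcnt4 at 14.8 and of the phosphatase gene Cdkn3 at 10.2 per the authors' deposited table. Clip1, a microtubule plus-end protein gene at 3.96, the sialic acid activating enzyme gene Cmas at 3.12, Hp1bp3 at 2.93 and the P450 reductase gene Por at 2.76 per the authors' deposited table followed. Smdt1, Sri, Mettl26 and Tmem176b were at 2.75, 2.30, 2.26 and 2.03 per the authors' deposited table. Of the 15, Tmem176b and Gcnt4 were listed in no other cluster. Traf5 was also raised in clusters 2 and 5, Thrap3 in cluster 2, Aamp in cluster 7 and Sri in cluster 4. Thrap3 was at 5.04 in cluster 2 per the authors' deposited table. Most of the 15 were listed in cluster 5, all but Traf5 without a call. Mettl26 at 14.9, Por at 5.80, Hp1bp3 at 4.52 and Aamp at 2.87 had larger folds there than in cluster 6 per the authors' deposited table. So did Traf5, at 2.78. Clip1, Cdkn3, Smdt1, Aldh6a1, Map1lc3b and Sri had smaller folds in cluster 5 than in cluster 6.

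With ribosomal and predicted genes left aside, the largest folds of the cluster belonged to Ak9, an adenylate kinase, at 87.0, the proton pump subunit Atp6v1g2 at 56.5, the sulfotransferase Sult5a1 at 39.3, Fam83h at 37.9 and Krt4 at 37.9 per the authors' deposited table. Msx2 at 36.4, Pip5k1bos at 34.9, Tfap2a at 33.1, Aplp1 at 31.4 and Samd7 at 30.6 per the authors' deposited table were next. They stood between positions 451 for Fam83h and 4142 for Msx2, and 9 of the 10 were listed in no other cluster. A block of 117 genes in cluster 6 shared exactly the same deposited p, at positions 2992 to 3108, with folds that ran from 3.54 to 87.0 (median 7.59). All 117 were raised and listed in no other cluster, and 76 were predicted or ribosomal genes. Ak9, Sult5a1, Samd7 and Epor were among them, and Krt4, Gkn2, Pigr, Trpm5 and Gcnt4 were not. Without the block, 3596 genes were raised in cluster 6, and 812 of them were listed in neither cluster 3 nor cluster 9.

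**Figure D5:**
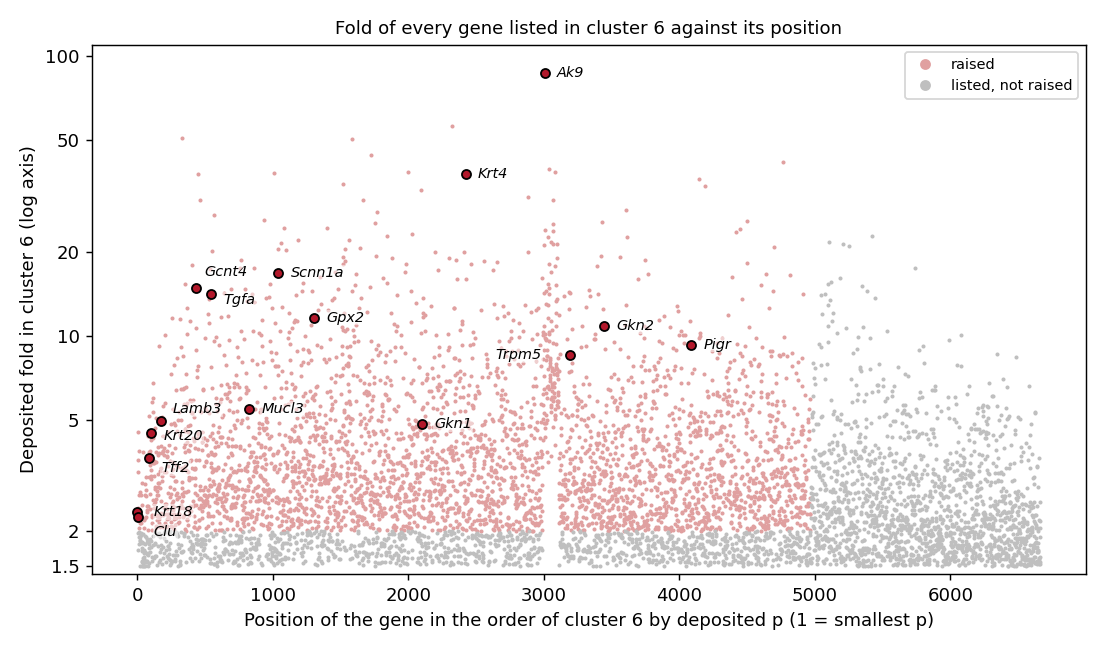
Deposited fold (log axis) of each of the 6664 genes of cluster 6 against its position in the order by deposited p, where 1 is the smallest p. Krt18 and Clu lie at the far left near a fold of 2, Gkn2 and Pigr lie beyond position 3000 near 10, and the block at positions 2992 to 3108 has no fold below 3.54.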

How the data were processed

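Single cells of 1 cystic and 1 tubular adenocarcinoma were captured by inDrop, and TruDrop libraries were made from them, per the labels' protocols. Per the submitters' processing notes, the build was mm10 and the tools STAR 2.7.3a, Partek and DESeq2 3.5, with no role given. The sources used here give no cell filter, doublet treatment, clustering method or cluster size. For each gene of each of 11 clusters the authors deposited a p-value and a linear fold, which is a ratio. The test behind the p-values is not named, and clusters are drawn from the expression of the same cells, so the p-values served to order and filter genes and are not printed. There are 0 columns of values for single samples.

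A gene was called raised at a fold of at least 2 and a p of at most 0.05. For 39 lists (14 of cell types, 25 of processes, 590 genes of which the table names 501) the raised members were counted in clusters 6, 3 and 9 beside the share over all 18319 named genes. Shares of a list are of all its members, named or not, so they are too low beside that background where many members are unnamed. No test was run. The members and lists were chosen with earlier results of these data known. Genes named are the 5 markers, the first 15 raised genes by p, the 10 largest folds, the 3 largest folds of each list, the first 15 listed in neither cluster 3 nor cluster 9, and members of the surface mucous, neck, simple keratin and laminin lists; ribosomal, mitochondrially encoded and predicted genes were left out of the rankings. A few genes that the rule names are not reported here. Other genes were named after their values were seen. Positions are those of GENCODE M21 (GRCm38, which is mm10), where 17925 names (97.8%) had a match. The RefSeq promoter table held 2604 of the 3713 raised genes. The counting was checked on simulated data, and Python 3.11.15 with pandas 2.3.3 was used. The alternatives tried were a fold of 1.5 or of 3, a p up to 0.01, no filter on p, and leaving out ribosomal and predicted genes. Leaving out genes with a tied p was added after the data were seen.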

Additional observations from a re-analysis of the deposited data

How the results depend on the processing

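The 3713 raised genes of cluster 6 fell to 2194 at a fold threshold of 3, the setting that moved this count by over 1.5 times, and ran from 2997 to 4968 under the others. The 929 raised genes listed in neither cluster 3 nor cluster 9 fell to 597 without ribosomal, mitochondrially encoded and predicted genes, and ran from 645 to 1270 under the others. Of the counts of raised members in the 39 lists, 14 fell by over 1.5 times at a fold of 3 and 4 at a p of at most 0.01, and 5 grew so at a fold of 1.5 and 4 without a filter on p. The lists that fell at a fold of 3 were mucous neck (to 3), intestinal (1), simple keratins (1), integrins (2), mucins (1), glycosyltransferases (7), stem cell (2), EGFR (2), MAPK (1), YAP (5), G2/M (3), cholesterol (5), hypoxia (1) and detoxification (3). The lists hold no ribosomal or predicted genes by design, so that setting says nothing of them. No paired analysis was possible because each tumor type has 1 library and the table gives clusters, not samples. The depth behind each fold is unknown, and how many cells carried a gene is not in the table.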

Other observations

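Of 88 cytoplasmic ribosomal protein genes named in the table, 7 were raised in cluster 6 (7.95%, against 20.3% of all named genes), 18 in cluster 3 (20.5%, against 4.0%) and 9 in cluster 9 (10.2%, against 26.6%). Rps2, at position 2 of cluster 6, was at 2.35 there, 2.39 in cluster 3 and 2.13 in cluster 9 per the authors' deposited table. Of 137 ribosomal pseudogenes, 2 were raised in cluster 6, 15 in cluster 3 and 0 in cluster 9. How reads were counted is not given in the sources used here, and reads of near-identical copies could have been split among them, so values of single ribosomal genes are uncertain. Of 78 mitochondrial ribosomal protein genes, 23 were raised in cluster 6 (29.5%), 3 in cluster 3 (3.85%) and 22 in cluster 9 (28.2%). Genes encoded by the mitochondrial genome were named for no cluster.

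Protein-coding genes made up 82.2% of the raised genes of cluster 6, 69.2% of those of cluster 3, 79.7% of those of cluster 9 and 76.9% of all named genes. Of 59 olfactory and vomeronasal receptor genes named in the table, which are not known as products of the stomach, 13 were raised in cluster 6 (22.0%, near the background of 20.3%), 4 in cluster 3 (6.78%, against 4.0%) and 11 in cluster 9 (18.6%, against 26.6%). Vmn1r193, a vomeronasal receptor gene, at 23.9, and Olfr691, an olfactory receptor gene, at 12.1 in cluster 6 per the authors' deposited table, were in the block of 117 genes with the same p, as was the progesterone receptor Pgr at 22.6. Blocks of genes with exactly the same p were also found in other clusters, the largest with 139 genes in cluster 4, 71 in cluster 3 and 21 in cluster 9, and all of the genes in these 3 blocks were listed in no other cluster.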
